A study of Sus scrofa with 5 samples.

Results

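Osteopontin, the secreted adhesion protein encoded by SPP1, and 7 genes of its receptors were followed across the nuclei of the pig abdominal aorta. The receptor genes were CD44 and the integrin subunits ITGAV, ITGB1, ITGB3, ITGB5, ITGA4 and ITGA9. The genes were listed by symbol, and each of the 8 was found among the 35670 genes of the count tables. SPP1 was chosen by its high level in obese macrophages of these libraries, so its values by class and by diet are a description and carry no test.

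The nuclei came from castrated male Ossabaw pigs, a breed used as a model of diet-induced obesity and metabolic disease. The obese group was 3 pigs on the HF/HFru diet, high in fat and fructose, and the control group was 2 pigs on chow. All pigs were 12 months old when the diets began, and the diets lasted 6 months by the treatment label but 9 months by the design text. About 50 mm of snap-frozen aorta per pig gave sorted nuclei for a droplet library of its own, so each library was 1 pig and the pig was the replicate.

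Osteopontin carries an arginine-glycine-aspartate motif that is bound by integrins pairing the αv subunit with β1, β3 or β5. After thrombin cuts the protein, a neighbouring stretch is bound by α4β1 and α9β1, and CD44, the main receptor for hyaluronan, has also been described as an osteopontin receptor. In human and mouse arteries SPP1 is known as a marker of lipid-laden macrophages in plaques and of smooth muscle cells that have left the contractile state.

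The coding stretch around this motif is shown because it is the part of the ligand that joins it to the integrins below. It lies in coding exon 5 of 6 of SPP1, on the minus strand of chromosome 8 of Sscrofa11.1 (chr8:131079284-131079367), and is given 5′ to 3′ from RefSeq's assembly. The capitals mark codons 154 to 156 of the 303 codons, which spell the motif, and the motif occurs 1 time in the protein.
SPP1: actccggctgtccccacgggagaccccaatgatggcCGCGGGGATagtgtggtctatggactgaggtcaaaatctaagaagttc
In human osteopontin the residues directly after the motif are those bound by α4β1 and α9β1, and thrombin cuts behind them.

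In the same RefSeq assembly, Sscrofa11.1, the SPP1 gene spans chr8:131077786-131085334 on the minus strand. CD44 lies at chr2:25788699-25884209, ITGB1 at chr10:56078393-56130608 and ITGB3 at chr12:16694466-16752228, all on the minus strand. ITGAV and ITGA4 lie on the plus strand of chromosome 15, at chr15:91604666-91711843 and chr15:86942054-87028428. ITGB5 and ITGA9 lie on the plus strand of chromosome 13, at chr13:135468111-135587483 and chr13:22298497-22655717.

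After filtering, 41986 nuclei with 143659131 UMIs (unique molecular identifiers, each standing for 1 captured RNA molecule) were kept, 7144 to 9289 per obese pig and 5437 and 11075 per control pig. The median nucleus had 1808 to 2253 UMIs in obese pigs and 2452 and 2681 UMIs in control pigs. Any pair of libraries shared 10 to 29 cell barcodes. Nuclei were grouped into 28 clusters without using the 8 genes, and clusters were named "X-like" from marker lists. Smooth muscle-like nuclei made up 59.3% ± 2.33 of obese aortae (SD, n = 3) and 81.8% ± 1.10 of control aortae (SD, n = 2). The 3 clusters that passed no marker list held 17.6% ± 9.00 of obese nuclei (SD, n = 3) and 3.45% ± 1.47 of control nuclei (SD, n = 2). A kidney tubule-like cluster, which does not match the labelled tissue, held 6.30%, 0.45% and 2.80% of nuclei in obese replicates 1 to 3 and 0.48% in each control pig. Levels are given as CPM, the UMIs of a gene divided by those of all genes in the same class and pig, on the usual counts-per-million scale. Nuclear reads also come from introns and the genes span from 7.55 kb for SPP1 to 357 kb for ITGA9, so levels were compared between classes and diets for 1 gene at a time, never between genes.

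SPP1 was highest in the macrophage-like nuclei of the obese aortae. Macrophage-like nuclei of obese replicates 1, 2 and 3 held 903, 5754 and 461 SPP1 UMIs, and those of both control pigs held 0. These counts were 677, 893 and 1344 CPM in obese pigs. A count of 0 was given a limit of 3 counts, which is 21.2 and 26.1 CPM in control replicates 1 and 2. The exact 95% intervals of these 0 counts reached 26.1 and 32.1 CPM. Every obese pig therefore lay above the limit of both control pigs. With the pigs of a diet summed and the control count set to the limit of 3 UMIs over the group, the obese level was at least 74.9-fold higher. This comparison rests on few control nuclei, because macrophage-like nuclei numbered 412, 1388 and 142 in obese pigs and 57 and 36 in control pigs. They made up 5.77%, 14.9% and 1.57% of obese nuclei and 0.51% and 0.66% of control nuclei. All obese shares were above both control shares, and the exact two-sided permutation test over the 5 pigs gave p = 0.2. This p is 2 times the one-sided p over 10 assignments, a definition under which 0.2 is the smallest p that 3 against 2 pigs allow.

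SPP1 was present in both macrophage-like clusters of obese pigs. In the cluster led by TGM3, which every pig contained, the level was 682, 630 and 943 CPM in obese replicates 1 to 3 and 0 CPM in both control pigs. The other cluster, led by CYP7A1, had 653, 944 and 2344 CPM in the same obese pigs and held no control nucleus. Its nuclei numbered 42, 733 and 23 in obese replicates 1, 2 and 3, so obese replicate 2 supplied most of them. Among all macrophage-like nuclei 50.2%, 50.4% and 45.1% of those in obese replicates 1 to 3 had at least 1 SPP1 UMI. After each nucleus was thinned to 1000 UMIs, which 297, 1114 and 87 nuclei of obese replicates 1, 2 and 3 were deep enough for, the shares were 36.7%, 34.3% and 41.6%. Macrophage-like nuclei held 69.1%, 81.7% and 75.3% of all SPP1 UMIs of the obese libraries.

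**Figure D1:**
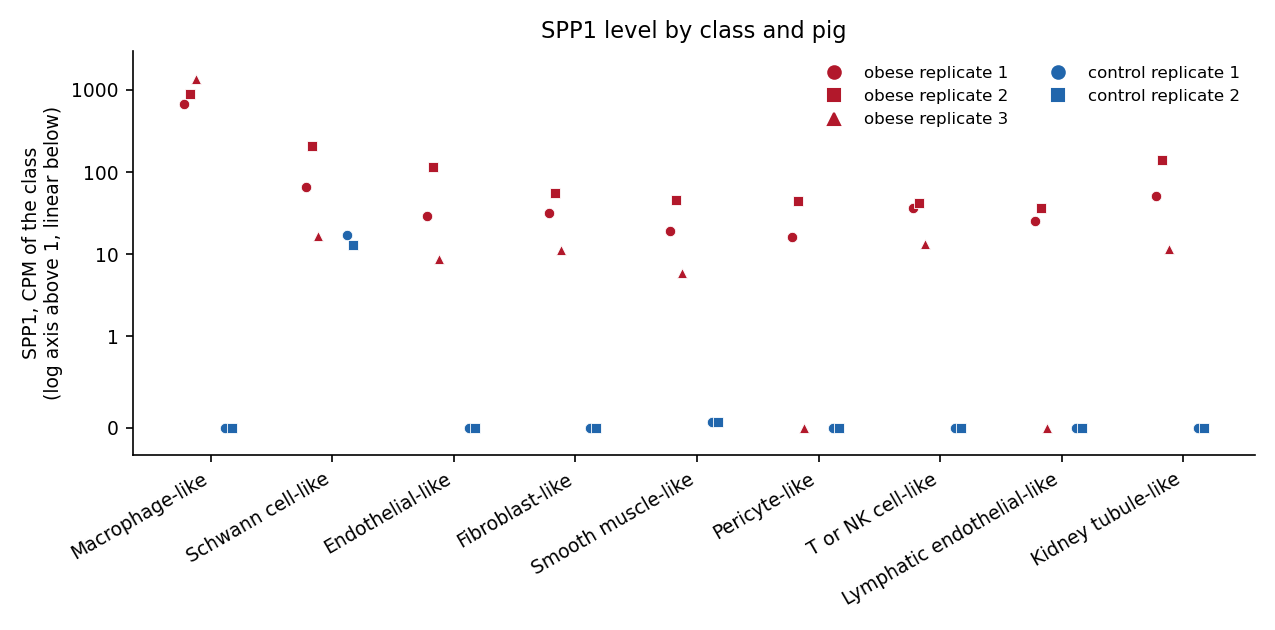
SPP1 level in CPM (vertical axis, logarithmic above 1 and linear below) in 9 classes of nuclei, with 1 point per pig, obese pigs in red and control pigs in blue. Macrophage-like nuclei of the 3 obese pigs lie between 677 and 1344 CPM, and both control pigs are at 0 in that class.

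SPP1 UMIs were also counted in other classes of the obese libraries, at a far lower level. Smooth muscle-like nuclei had 19.0, 46.1 and 5.95 CPM in obese replicates 1 to 3, from 214, 837 and 83 UMIs. Those of control replicates 1 and 2 had 2 and 1 UMIs, and the ratio of the obese to the control sum was 433, with a counting interval of 148 to 2103. The smooth muscle-like level was 2.80%, 5.16% and 0.44% of the macrophage-like level in obese replicates 1, 2 and 3. Fibroblast-like nuclei had 32.2, 55.6 and 11.3 CPM in obese pigs and no UMI in control pigs, which makes the obese sum at least 40.2-fold higher. Endothelial-like nuclei had 29.0, 115 and 8.82 CPM in obese pigs and no UMI in control pigs, and the obese sum was at least 70.9-fold higher. In smooth muscle-like, fibroblast-like and endothelial-like nuclei alike, obese replicate 2 was the highest and obese replicate 3 the lowest. Obese replicate 2 also had the most macrophage-like nuclei and obese replicate 3 the fewest of the 3 obese pigs. The cause of this order was not tested.

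Droplets also take up free RNA from broken cells, so these levels were set beside those of other classes. T or NK cells can make osteopontin when activated, and pericytes are mural cells like smooth muscle cells, so neither class is known to lack SPP1. T or NK cell-like nuclei had 36.6, 42.2 and 13.4 CPM in obese replicates 1 to 3, from 5, 8 and 1 UMIs, and no UMI in control pigs. Nuclei with a UMI made up 6.56%, 10.0% and 3.12% of T or NK cell-like nuclei, at median depths of 1451, 1608 and 2115 UMIs. Among smooth muscle-like nuclei they made up 4.65%, 12.9% and 1.18%, at median depths of 1790, 2175 and 1620 UMIs. Pericyte-like nuclei had 16.2, 45.0 and 0 CPM in the same obese pigs, from 6, 23 and 0 UMIs, and 3.16%, 12.1% and 0% of them had a UMI. The counting intervals of the T or NK cell-like level were 11.9 to 85.3, 18.2 to 83.2 and 0.34 to 74.6 CPM in obese replicates 1 to 3. In each obese pig the smooth muscle-like level lay within this interval, so the order of the 2 classes was not resolved. Whether the smooth muscle-like level was free RNA or low expression cannot be told apart from these values. Fibroblast-like levels also lay within these intervals. Endothelial-like levels did so in obese replicates 1 and 3 and lay above the interval in obese replicate 2. Kidney tubule-like nuclei had 51.5, 140 and 11.7 CPM in the obese pigs. Lymphatic endothelial-like nuclei had 25.6, 36.1 and 0 CPM in obese replicates 1 to 3, from 3, 11 and 0 UMIs, and no UMI in control pigs.

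The counts per nucleus depend in part on the level, since a higher mean level puts more UMIs into nuclei with several. Of the SPP1 UMIs in obese macrophage-like nuclei, 91.6% were in nuclei with 3 or more, and the highest count in a nucleus was 125. In obese smooth muscle-like and fibroblast-like nuclei, both of a lower level, these shares were 6.79% and 2.34%. The levels of these classes, with the obese pigs summed, were 26.1 and 37.5 CPM, so the share did not always follow the level. In obese endothelial-like nuclei the share was 37.2%, from 29 UMIs in 3 nuclei of obese replicate 2. Those 3 endothelial-like nuclei, with up to 18 UMIs, thus held 29 of the 60 SPP1 UMIs of the class in that pig.

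**Figure D2:**
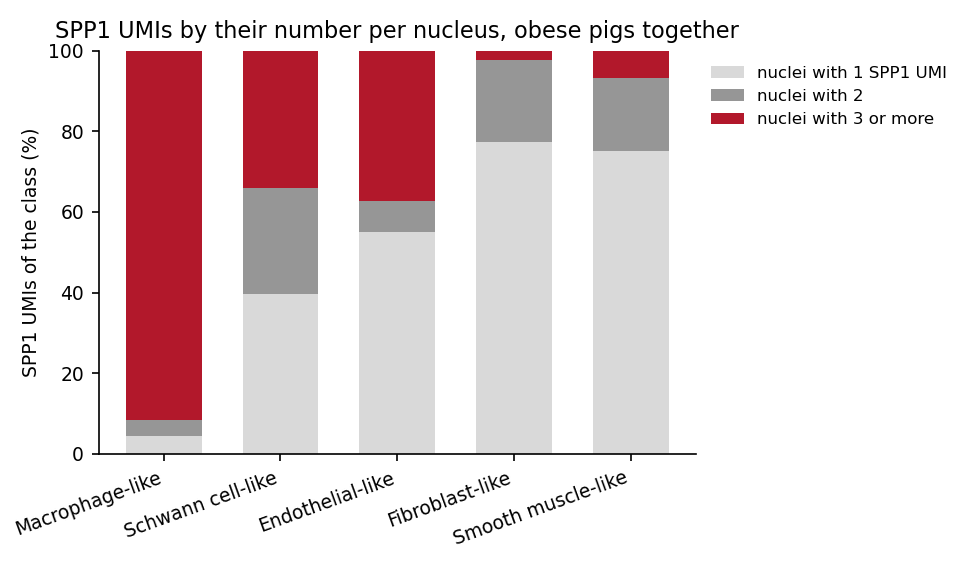
Share of the SPP1 UMIs of each class (vertical axis, percent) that lay in nuclei with 1, 2, or 3 or more SPP1 UMIs, with the 3 obese pigs summed. Nuclei with 3 or more hold 91.6% of the UMIs in the macrophage-like class and 6.79% in the smooth muscle-like class.

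The SPP1 counts were also set against macrophage marker RNA in the same class and pig. The 12 macrophage markers summed to 117, 194 and 181 CPM in smooth muscle-like nuclei of obese replicates 1 to 3 and to 360 and 272 CPM in those of control pigs, with 0 of 12 markers at 0 in each obese pig and 1 and 2 at 0 in the control pigs. MERTK supplied most of that sum, with 95.6, 121 and 168 CPM in the obese pigs and 352 and 261 CPM in the control pigs. Against CD163, F13A1 and MSR1 alone, the SPP1 ratio of smooth muscle-like nuclei was 2.44, 2.45 and 0.881 times that of macrophage-like nuclei in obese replicates 1, 2 and 3. Against the complement genes C1QA, C1QB and C1QC it was 0.822, 0.355 and 0.216 times. The side of 1 on which the ratio fell thus depended on the markers chosen, which were added after the values were seen. The part of free RNA in the smooth muscle-like, fibroblast-like and endothelial-like SPP1 counts was not tested beyond these ratios.

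Schwann cell-like nuclei had SPP1 UMIs in every pig, as had the far more numerous smooth muscle-like nuclei. The Schwann cell-like level was 65.6, 209 and 16.6 CPM in obese replicates 1 to 3, from 11, 131 and 2 UMIs, and 17.3 and 12.9 CPM in control replicates 1 and 2, from 3 and 2 UMIs. The summed obese level was 10.3 times the control level, with a counting interval of 4.32 to 32.3. The lowest obese pig overlapped the control pigs, and obese replicate 2 supplied most of the obese UMIs. In each obese pig the level was above that of T or NK cell-like nuclei, but beyond the counting interval of that class only in obese replicate 2. In obese replicate 3 the comparison set 2 UMIs against 1. The 77 and 64 Schwann cell-like nuclei of control replicates 1 and 2 held 5 of the 8 SPP1 UMIs of both control libraries. Schwann cells are known to make osteopontin in injured nerves of rodents.

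Over all nuclei, obese replicates 1, 2 and 3 had 1306, 7045 and 612 SPP1 UMIs, against 5 and 3 in control replicates 1 and 2. The ratio of the sums was 873, with a counting interval of 443 to 2023. In such a sum over all nuclei, more macrophages and more SPP1 RNA per macrophage cannot be told apart.

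The genes whose level followed SPP1 most closely were ranked by Pearson's r of log2(CPM + 1) over 44 sums of 1 class and 1 pig in 10 classes. The sums share libraries, depth and clustering, so r is a description. The 8 highest were MCOLN3 (r = 0.865), NYAP2 (r = 0.858), SHISA9 (r = 0.836), APOE (r = 0.806), SMPDL3A (r = 0.797), CTSD (r = 0.793), CXCL14 (r = 0.783) and CYP7A1 (r = 0.764). MCOLN3 encodes a calcium channel of endosomes and lysosomes, APOE a lipid carrier that macrophages secrete, CTSD a lysosomal protease and CYP7A1 the rate-limiting enzyme of bile acid synthesis in liver. MCOLN3 had 555, 1205 and 933 CPM in macrophage-like nuclei of obese replicates 1 to 3 and 0 CPM in both control pigs. APOE had 66.0, 197 and 75.8 CPM in the obese pigs and 0 CPM in both control pigs. CTSD had 433, 629 and 338 CPM in the obese pigs and 28.3 and 26.1 CPM in the control pigs. In macrophage-like nuclei each of the 8 genes was higher in every obese pig than in both control pigs. These sums were among those used to pick the 8 genes by their likeness to SPP1, so this order is no separate result. In smooth muscle-like nuclei their levels were between 0.43 and 60.2 CPM in obese pigs.

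The receptors were spread over all classes, each with an order of its own. CD44 averaged 720 ± 490 CPM in macrophage-like nuclei, 599 ± 155 CPM in T or NK cell-like nuclei and 543 ± 226 CPM in pericyte-like nuclei (SD over 5 pigs, as for the other receptors). Macrophage-like nuclei exceeded T or NK cell-like nuclei in 3 of 5 pigs, all of them obese. These obese pigs had 698, 797 and 1493 CPM against 490, 475 and 830 CPM. Control replicates 1 and 2 had the reverse order, with 396 and 218 CPM against 513 and 689 CPM. The order of the means over the 5 pigs was within the spread between pigs. Schwann cell-like nuclei averaged 281 ± 102 CPM, fibroblast-like nuclei 220 ± 96.6 CPM and smooth muscle-like nuclei 127 ± 32.6 CPM. Endothelial-like and lymphatic endothelial-like nuclei were lowest, with 31.8 ± 11.6 and 21.6 ± 21.3 CPM. The unnamed cluster led by ANKRD1 had 816, 734 and 1257 CPM in obese replicates 1 to 3 and 462 and 257 CPM in control pigs. Because that cluster held 2049 nuclei of obese replicate 3, the unnamed clusters supplied 77.7% of that library's CD44 UMIs, whereas macrophage-like nuclei supplied 56.5% of those of obese replicate 2.

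ITGAV, the αv subunit shared by the integrins that bind the arginine-glycine-aspartate motif, averaged 395 ± 191 CPM in Schwann cell-like nuclei, 348 ± 121 CPM in the unnamed clusters and 312 ± 62.1 CPM in smooth muscle-like nuclei. The order of these classes was within the spread between pigs, and in both control pigs smooth muscle-like nuclei, with 297 and 236 CPM, were above Schwann cell-like nuclei, with 266 and 181 CPM. Smooth muscle-like nuclei held 69.4% of the ITGAV UMIs of a library on average. Macrophage-like nuclei had 118 ± 62.2 CPM and lymphatic endothelial-like nuclei 106 ± 20.8 CPM. ITGB1, the β1 subunit that pairs with αv, α4 and α9, was present in all classes and averaged 751 ± 332 CPM in the unnamed clusters. Its levels were 710 ± 235 CPM in smooth muscle-like nuclei, 693 ± 261 CPM in T or NK cell-like nuclei and 546 ± 152 CPM in fibroblast-like nuclei, and 115 ± 68.3 CPM in lymphatic endothelial-like nuclei, the lowest class. Smooth muscle-like nuclei exceeded T or NK cell-like nuclei, the next named class, by less than the spread between pigs.

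ITGB3, the β3 subunit known from platelets and activated endothelium, rested on few UMIs. It averaged 31.5 ± 11.6 CPM in endothelial-like nuclei, 28.7 ± 28.3 CPM in lymphatic endothelial-like nuclei, 25.9 ± 22.4 CPM in Schwann cell-like nuclei and 23.0 ± 8.06 CPM in fibroblast-like nuclei. The means of these 4 classes did not differ beyond their spread. The fibroblast-like mean joined 2 unlike clusters. The GFPT2 cluster had 65.4 to 103 CPM in obese pigs and 79.6 to 87.4 CPM in control pigs. The RALYL cluster had 1.41 to 6.36 CPM in obese pigs and 8.57 to 9.70 CPM in control pigs. Smooth muscle-like nuclei had 5.14 ± 2.14 CPM, and macrophage-like nuclei had 13, 13 and 2 UMIs in obese replicates 1 to 3 and none in control pigs. ITGB5, the β5 subunit, averaged 778 ± 360 CPM in fibroblast-like nuclei and 736 ± 334 CPM in endothelial-like nuclei, and the fibroblast-like level was the higher in 4 of 5 pigs. The unnamed clusters followed at 575 ± 425 CPM, then macrophage-like nuclei at 237 ± 16.9 CPM and smooth muscle-like nuclei at 224 ± 120 CPM.

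ITGA4, which pairs with β1 on leukocytes, had the sharpest pattern. T or NK cell-like nuclei had 830 ± 353 CPM and were above every other class in each of the 5 pigs. Macrophage-like nuclei had 92.4 ± 87.7 CPM, fibroblast-like nuclei 32.8 ± 9.54 CPM, smooth muscle-like nuclei 1.97 ± 1.20 CPM and endothelial-like nuclei 0.86 ± 1.18 CPM. ITGA9, which pairs with β1 and is known from lymphatic valves, averaged 880 ± 454 CPM in endothelial-like nuclei and 764 ± 711 CPM in lymphatic endothelial-like nuclei. Fibroblast-like nuclei with 632 ± 206 CPM and smooth muscle-like nuclei with 580 ± 123 CPM followed, and macrophage-like nuclei had 206 ± 94.1 CPM. Neighbouring classes in this order overlapped between pigs.

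**Figure D3:**
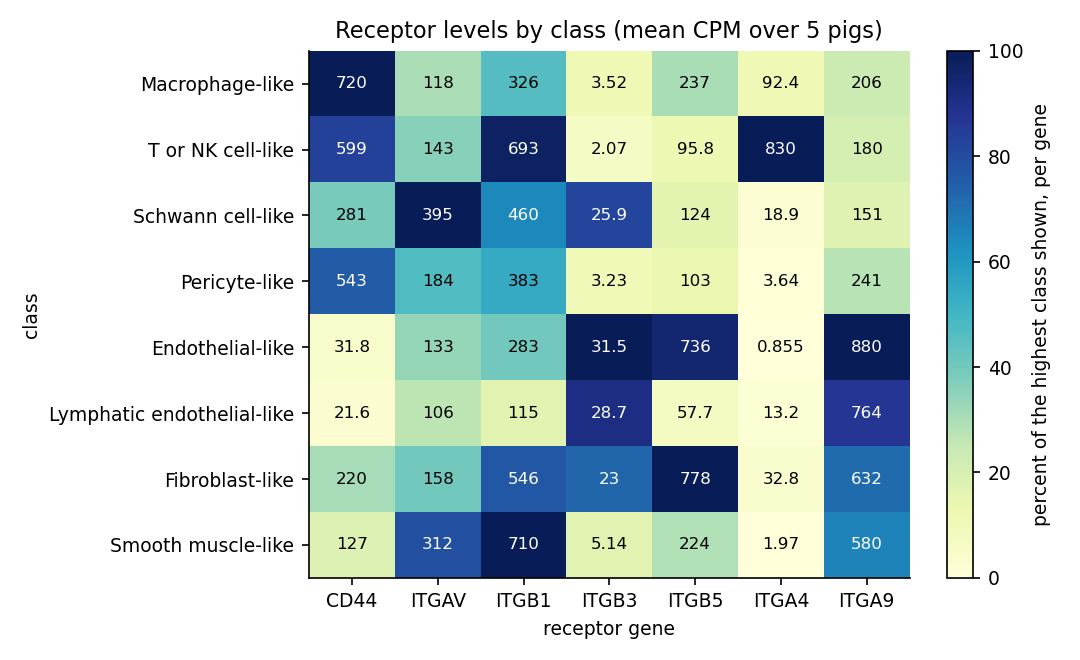
Mean CPM over 5 pigs of the 7 receptor genes (columns) in 8 classes of nuclei (rows), with the colour showing each value as a percent of the gene's highest class. CD44 and ITGA4 have their highest means in leukocyte classes, ITGB5 in fibroblast-like and ITGA9 in endothelial-like nuclei.

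By the same measure of likeness, the genes closest to the receptors were RNF157, RUNX1 and RASA3 for CD44 (r = 0.771 to 0.778), DMD, PDZRN3 and GLRB for ITGAV (r = 0.754 to 0.806) and JAZF1, IFFO2 and HNRNPR for ITGB1 (r = 0.726 to 0.783). They were NME5, SPIRE2 and DDAH1 for ITGB3 (r = 0.766 to 0.799), GXYLT2, ID1 and RSPO3 for ITGB5 (r = 0.677 to 0.790), ARRB2, ARHGAP4 and GIMAP6 for ITGA4 (r = 0.828 to 0.841) and PTGIS, WWC2 and LIMCH1 for ITGA9 (r = 0.7752 to 0.7997).

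Whether the receptors differed between diets was tested on UMIs summed per class and pig with edgeR's quasi-likelihood test, and a gene is called when its Benjamini-Hochberg adjusted p over all genes tested is below 0.05. In smooth muscle-like nuclei 1 of the 7 receptors was called, and 0.19% of all genes tested were (0.138% higher and 0.0519% lower in obese pigs). In endothelial-like nuclei 1 of the 6 tested receptors was called, against 8.22% of all genes (5.9% higher and 2.32% lower). No receptor was called in fibroblast-like nuclei, where 0.182% of genes were, in macrophage-like nuclei, where 0.974% were, or over all nuclei, where 0.00499% were. Groups that did not overlap were common among all genes. Obese and control pigs did not overlap for 3 of 7 receptors in smooth muscle-like nuclei against 29.6% of genes, for 3 of 7 in fibroblast-like nuclei against 27.5%, for 3 of 6 in endothelial-like nuclei against 44.7% for 2 of 6 in macrophage-like nuclei against 35.3% and for 3 of 7 over all nuclei against 30.5%. Whether the effect of diet differed by class was tested as an interaction, which was called for 1 receptor between smooth muscle-like and endothelial-like nuclei and for 3 between smooth muscle-like and macrophage-like nuclei, given below. It was called for none between smooth muscle-like and fibroblast-like nuclei (0.0249% of genes), fibroblast-like and endothelial-like (1.16%), fibroblast-like and macrophage-like (0.0097%) or endothelial-like and macrophage-like nuclei (1.49%).

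**Figure D4:**
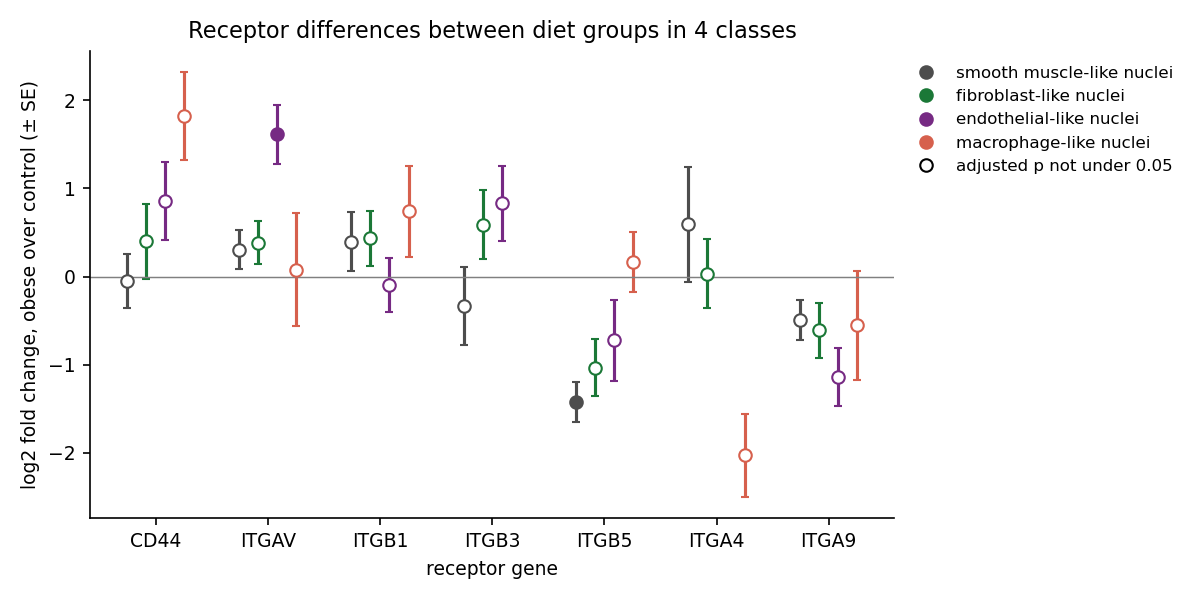
Log2 fold change of obese over control pigs (vertical axis, ± SE of the edgeR fit) of 7 receptor genes in 4 classes, with filled points for an adjusted p under 0.05. The filled points are ITGB5 in smooth muscle-like nuclei at -1.43 and ITGAV in endothelial-like nuclei at 1.62.

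ITGB5 fell in smooth muscle-like nuclei. It had 105, 161 and 147 CPM in obese replicates 1 to 3 and 343 and 364 CPM in control replicates 1 and 2. All obese pigs lay below both control pigs, by more than the spread within either group. The log2 fold change was -1.43 ± 0.22 (SE, 3 obese and 2 control pigs), with an adjusted p of 0.0459 by edgeR's quasi-likelihood test. The call was close to its threshold and was lost without obese replicate 1 (-1.27, adjusted p = 0.177), obese replicate 2 (-1.49, 0.0503), control replicate 1 (-1.49, 0.264) or control replicate 2 (-1.36, 0.141), with edgeR in each case. It was also lost with the members allowed in the clustering (adjusted p = 0.0651) and in nuclei with no macrophage marker but MERTK (adjusted p = 0.0567), both by edgeR. The direction was the same in all 13 alternatives, from -1.54 to -1.27.

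The smooth muscle-like clusters were filled unequally by the diets, so ITGB5 was also compared within clusters. In 10 of the 11 smooth muscle-like clusters with at least 10 nuclei in every pig, each obese pig was below both control pigs. The exception was the cluster led by PPP1R3B, where obese pigs had 148 to 185 CPM and control pigs 136 and 434 CPM. Over all classes this order held in 17 of 22 clusters for ITGB5, whereas for ITGA9 it held in 9, for ITGB3 and ITGA4 in 3 each, for CD44 and ITGB1 in 1 each and for ITGAV in 0. The cluster led by KCNE1, for example, had 209 to 320 CPM in obese pigs and 403 to 485 CPM in control pigs. The cluster led by COL19A1 had 115 to 180 CPM in obese pigs and 273 to 314 CPM in control pigs. All clusters share the same pigs, so they are not separate results. The number of all genes with such an order across clusters was not counted.

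**Figure D5:**
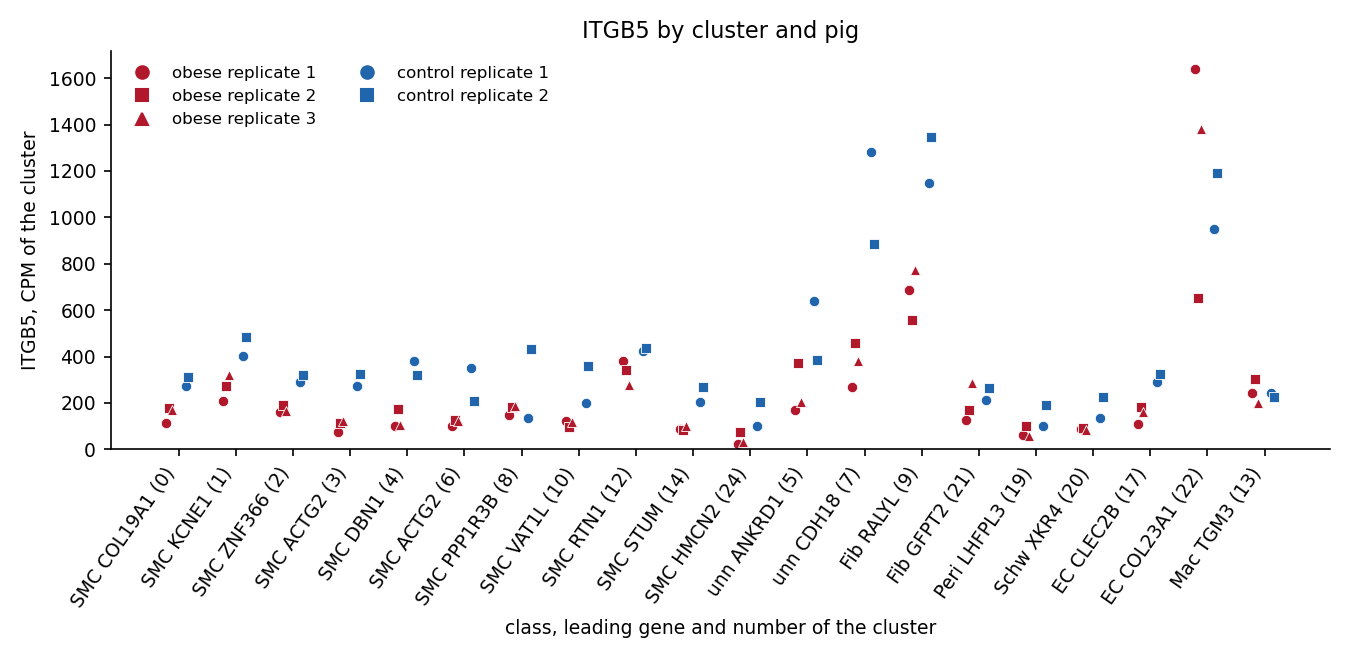
ITGB5 in CPM (vertical axis) by cluster, with 1 point per pig, obese pigs in red and control pigs in blue, and each cluster labelled by class (SMC smooth muscle-like, unn unnamed, Fib fibroblast-like, Peri pericyte-like, Schw Schwann cell-like, EC endothelial-like, Mac macrophage-like), leading gene and number. Obese points lie below control points in 10 of 11 smooth muscle-like clusters, and they overlap in the macrophage-like cluster.

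Outside smooth muscle-like nuclei ITGB5 was not called. Fibroblast-like nuclei had 539, 361 and 720 CPM in obese pigs and 1015 and 1256 CPM in control pigs, without overlap, and the log2 fold change was -1.04 ± 0.32 (adjusted p = 0.277, edgeR). It was called without obese replicate 3 (-1.36), with no filter on low counts and with the members allowed in the clustering. The GFPT2 cluster held 22.0%, 44.4% and 12.3% of the class in obese replicates 1 to 3 and 14.9% and 9.71% in control pigs. There ITGB5 was 127 to 286 CPM in obese pigs and 214 to 265 CPM in control pigs, with overlap. In the RALYL cluster it was 558 to 774 CPM in obese pigs and 1149 to 1346 CPM in control pigs, without overlap. Endothelial-like nuclei had 868, 258 and 561 CPM in obese pigs and 863 and 1129 CPM in control pigs, with overlap, and a log2 fold change of -0.73 ± 0.46 (adjusted p = 0.355, edgeR). The endothelial-like value depended on the cluster, since the COL23A1 cluster alone gave 0.34 and the CLEC2B cluster alone -0.97. In the CLEC2B cluster obese pigs had 108 to 182 CPM and control pigs 289 to 325 CPM. Macrophage-like nuclei had 250, 254 and 213 CPM in obese pigs and 241 and 226 CPM in control pigs, values that could not be separated by diet (0.17 ± 0.34, adjusted p = 0.882, edgeR). The diet effect on ITGB5 was lower in smooth muscle-like than in macrophage-like nuclei by a log2 difference of -1.84 ± 0.50 (adjusted p = 0.0200 for the interaction, edgeR), in a comparison where 2.31% of genes were called. With another size factor (RLE) this adjusted p was 0.0671. Over all nuclei the ITGB5 level was 184, 219 and 204 CPM in obese pigs and 474 and 461 CPM in control pigs (-1.27 ± 0.20, adjusted p = 0.0850, edgeR). That sum was called without obese replicate 2 (-1.24) or 3 (-1.35), with no filter and with DESeq2, and the mix of classes in it differed between diets.

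ITGAV rose in endothelial-like nuclei. It had 131, 195 and 215 CPM in obese replicates 1 to 3, from 68, 102 and 73 UMIs, and 59.5 and 64.3 CPM in control replicates 1 and 2. Each obese pig lay above both control pigs. The log2 fold change was 1.62 ± 0.33 (SE, 3 obese and 2 control pigs), with an adjusted p of 0.0211 by edgeR's quasi-likelihood test. The call was lost without control replicate 1 (1.53, adjusted p = 0.159) and without control replicate 2 (1.67, 0.133), both with edgeR. Endothelial-like nuclei were a different mixture in the diets. The cluster led by CLEC2B supplied 153, 199 and 100 nuclei of obese pigs and 154 and 49 of control pigs, and the cluster led by COL23A1 supplied 42, 24 and 22 nuclei of obese pigs and 251 and 146 of control pigs. Within the CLEC2B cluster the log2 fold change was 1.49 (adjusted p = 0.398) and within the COL23A1 cluster 1.30 (adjusted p = 0.217), both by edgeR, and neither was called alone. The CLEC2B cluster had 96.1 to 288 CPM in obese pigs and 44.8 to 87.2 CPM in control pigs, without overlap. The COL23A1 cluster had 62.8 to 177 CPM in obese pigs and 55.3 to 65.8 CPM in control pigs, with overlap.

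In smooth muscle-like nuclei ITGAV had 408, 321 and 298 CPM in obese pigs and 297 and 236 CPM in control pigs. The lowest obese pig lay just above the highest control pig, and the log2 fold change of 0.30 ± 0.22 was not called (adjusted p = 0.593, edgeR). The difference between the diet effects of smooth muscle-like and endothelial-like nuclei was -1.15 ± 0.37 on the log2 scale (adjusted p = 0.0494 for the interaction, edgeR), in a comparison where 3.81% of genes were called. All obese pigs were above both control pigs for ITGAV in 7 of 9 classes with at least 10 nuclei in every pig, the unnamed clusters counted as 1 class, and in 7 of 22 single clusters. These classes and clusters share the same pigs, and the number of all genes with such an order across them was not counted.

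ITGA9 had 663, 432 and 620 CPM in endothelial-like nuclei of obese pigs and 1144 and 1542 CPM in those of control pigs. The groups did not overlap, but the log2 fold change of -1.14 ± 0.33 missed the threshold (adjusted p = 0.0657, edgeR), which DESeq2 (adjusted p = 0.0296) and edgeR with no filter passed. Within the CLEC2B and COL23A1 clusters it was -0.56 and -0.64, with all obese pigs below both control pigs in each. All obese pigs were also below both control pigs in 6 of 9 classes, which share the same pigs, and such orders were not counted across classes for all genes. ITGB1 was called in no class, with log2 fold changes from -0.10 to 0.74. ITGB3 was called in no class in which it was tested, and it had too few UMIs for a test in macrophage-like nuclei, as had ITGA4 in endothelial-like nuclei.

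In macrophage-like nuclei CD44 and ITGA4 stood on opposite sides. CD44 had 698, 797 and 1493 CPM in obese replicates 1 to 3 and 396 and 218 CPM in control replicates 1 and 2. All obese pigs were above both control pigs, and the log2 fold change was 1.82 ± 0.50 (adjusted p = 0.134, edgeR). ITGA4 had 30.0, 43.5 and 43.7 CPM in obese pigs and 241 and 104 CPM in control pigs. The control level rested on few nuclei, since the 34 UMIs of control replicate 1 lay in 5 of 57 nuclei and the 12 UMIs of control replicate 2 in 8 of 36. Nuclei with an ITGA4 UMI made up 7.04%, 11.0% and 7.75% in obese pigs and 8.77% and 22.2% in control pigs, and these shares overlapped. All obese CPM values were below both control pigs, and the log2 fold change was -2.03 ± 0.47 (adjusted p = 0.0905, edgeR). Neither was called by edgeR, whereas DESeq2 gave an adjusted p of 0.0308 for CD44 and 0.00942 for ITGA4, and edgeR with no filter on low counts also called both. In the TGM3 cluster alone, the one with control nuclei, the log2 fold changes were 1.55 and -1.98. CD44 there had 630 to 1396 CPM in obese pigs and 218 to 396 CPM in control pigs.

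The diet effects in macrophage-like nuclei differed from those in smooth muscle-like nuclei for both genes, in a comparison where 2.31% of genes were called. For CD44 the log2 difference, smooth muscle-like minus macrophage-like, was -2.06 ± 0.51 (adjusted p = 0.00773 for the interaction, edgeR). Smooth muscle-like nuclei had 109, 105 and 168 CPM of CD44 in obese pigs and 97.8 and 157 CPM in control pigs, and those groups overlapped. For ITGA4 the log2 difference was 2.54 ± 0.67 (adjusted p = 0.0143 for the interaction, edgeR), and smooth muscle-like nuclei had 2.57, 3.42 and 1.00 CPM in obese pigs and 2.36 and 0.48 CPM in control pigs. CD44 over all nuclei was 266, 279 and 579 CPM in obese pigs and 111 and 161 CPM in control pigs, and it was not called (1.44 ± 0.44, adjusted p = 0.233, edgeR).

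Genes of the pathway around osteopontin were read from the same fits. Of the SIBLING family, the secreted phosphoproteins of bone and tooth to which SPP1 belongs, DMP1, IBSP and MEPE were matched. DMP1, the highest of them over all nuclei, had 45, 71 and 113 UMIs in the smooth muscle-like class of obese pigs and 215 and 97 UMIs in that of control pigs, and it was not called (-0.25, adjusted p = 0.840, edgeR). In macrophage-like nuclei DMP1 had 11, 46 and 3 UMIs in obese pigs and none in control pigs. IBSP, the next highest, had 19, 13 and 16 UMIs over all nuclei of obese pigs and 17 and 2 UMIs over those of control pigs, and it was not called (1.16, adjusted p = 0.492, edgeR).

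Of 19 other ligands of these integrins or CD44, 16 were tested in smooth muscle-like nuclei and 1 rose, against 0.138% of all genes. In fibroblast-like nuclei 1 of 13 rose, against 0.159% of all genes. In endothelial-like nuclei 3 of 12 rose and 1 fell, against 5.9% and 2.32% of all genes. None of 10 was called in macrophage-like nuclei. The median log2 fold change of these ligands was 0.06, 0.31, 0.17 and 0.49 in those 4 classes, and that of all genes was 0.00, 0.00, -0.03 and 0.10. THBS1, the matrix protein thrombospondin, was the ligand that rose in all of smooth muscle-like, fibroblast-like and endothelial-like nuclei. It had 833, 387 and 562 CPM in the smooth muscle-like class of obese pigs and 65.3 and 84.9 CPM in that of control pigs (log2 fold change 2.93, adjusted p = 0.023, edgeR). In fibroblast-like nuclei THBS1 had 344, 278 and 374 CPM in obese pigs and 69.5 and 47.8 CPM in control pigs (2.51, adjusted p = 0.027, edgeR). In endothelial-like nuclei it had 441, 614 and 1346 CPM in obese pigs and 145 and 80.5 CPM in control pigs (2.93, adjusted p = 0.016, edgeR). No obese pig overlapped a control pig for THBS1 in these classes, but each call depended on single pigs. Without obese replicate 1, control replicate 1 or control replicate 2 the smooth muscle-like log2 fold change was 2.61, 2.73 or 3.16 and the fibroblast-like one 2.50, 2.78 or 2.31, with no call. The endothelial-like call was lost without control replicate 2 (2.57), and the value was 2.23 without obese replicate 3.

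The other calls among the ligands were in endothelial-like nuclei. VCAM1, an adhesion molecule bound by α4β1, had 164, 49.7 and 373 CPM in obese pigs and 19.7 and 21.2 CPM in control pigs (3.37, adjusted p = 0.028, edgeR). NID1, a basement membrane protein, had 46.4, 44.0 and 44.1 CPM in obese pigs and 7.09 and 1.63 CPM in control pigs (3.24, adjusted p = 0.011, edgeR). CCN2, a matrix protein that binds αv integrins, had 85.1, 70.7 and 173 CPM in obese pigs and 354 and 470 CPM in control pigs (-1.83, adjusted p = 0.028, edgeR). In the CLEC2B cluster alone VCAM1, NID1 and CCN2 gave 1.38, 1.18 and -0.38, and none was called. The VCAM1 call was also lost without obese replicate 3 (2.43), control replicate 1 (3.29) or control replicate 2 (3.42), and the CCN2 call without obese replicate 1 (-1.65), obese replicate 2 (-1.52) or control replicate 2 (-1.61). NID1 stayed called with any pig left out, at 4.67 without control replicate 1 and 2.70 without control replicate 2.

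Of 19 other integrin subunits none was called among the 19 tested in smooth muscle-like nuclei or the 10 tested in fibroblast-like nuclei. In endothelial-like nuclei 1 of 11 rose, against 5.9% of all genes, a share near that background. This was ITGA6, a laminin receptor subunit, with 168, 289 and 194 CPM in obese pigs and 85.9 and 29.3 CPM in control pigs (1.95, adjusted p = 0.031, edgeR), which turned to -0.26 in the CLEC2B cluster alone. The ITGA6 call was lost without obese replicate 2 (1.79), obese replicate 3 (1.96) or control replicate 2 (1.39), and the value was 2.92 without control replicate 1. In macrophage-like nuclei 1 of 10 fell, against 0.301% of all genes. This was ITGAL, the α subunit of the leukocyte integrin LFA-1, with 59.96, 59.1 and 90.4 CPM in obese pigs and 290 and 714 CPM in control pigs (-2.74, adjusted p = 0.047, edgeR). The ITGAL call was lost without obese replicate 3 (-3.00), control replicate 1 (-3.23) or control replicate 2 (-1.88). The median log2 fold change of the tested subunits was -0.16, 0.05, 0.10 and 0.21 in smooth muscle-like, fibroblast-like, endothelial-like and macrophage-like nuclei.

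Of 11 genes listed with the processing and crosslinking of osteopontin, 7, 4, 4 and 4 were tested in smooth muscle-like, fibroblast-like, endothelial-like and macrophage-like nuclei, and 1 was called, in macrophage-like nuclei. Their median log2 fold changes were 0.49, -0.23, -0.16 and 3.96, the last being 1.58 with the gene that had no control UMI set at its bound. The called member, ENPP1, was 1 of 4 tested in macrophage-like nuclei, where 0.673% of all genes rose. It neither processes nor crosslinks osteopontin but makes the mineralization inhibitor pyrophosphate. It had 840, 1530 and 1090 CPM there in obese pigs and 7.08 and 8.70 CPM in control pigs, from 1 UMI in each (7.32, adjusted p = 0.016, edgeR). The ratio of the summed obese to the summed control level of ENPP1 was 179, with a counting interval of 49.6 to 1479. With so few control UMIs, ENPP1 passed the filter on low counts through the obese pigs alone. The ENPP1 call was lost without obese replicate 3 (7.31), control replicate 1 (7.18) or control replicate 2 (7.53). Of 22 genes of adhesion signalling, 19 to 22 were tested per class and 1 was called. This was RDX, which encodes radixin, a linker of CD44 to actin. It was 1 of 19 tested in endothelial-like nuclei, where 8.22% of all genes were called and 2.32% fell. RDX had 56.1, 59.3 and 91.1 CPM in obese pigs and 209 and 212 CPM in control pigs (-1.55, adjusted p = 0.024, edgeR). The RDX call was lost with any pig left out but obese replicate 3, at -1.58 to -1.37, and in the CLEC2B cluster alone (-0.74). The median of this list was -0.15, 0.15, 0.23 and -0.17 in the same order of classes. Of 12 transcription factors linked to SPP1, 11, 9, 6 and 11 were tested, with medians of 0.55, 0.54, 1.24 and 0.75. The 1 call was RUNX1, 1 of 6 tested in endothelial-like nuclei, where 5.9% of all genes rose. RUNX1 had 58.0, 74.5 and 91.1 CPM there in obese pigs and 8.28 and 0.81 CPM in control pigs (3.86, adjusted p = 0.009, edgeR). It stayed called with any pig left out, at 6.25 without control replicate 1 and 3.21 without control replicate 2, but not in the CLEC2B cluster alone (2.69). In macrophage-like nuclei RUNX1 had 887, 1551 and 1460 CPM in obese pigs and 793 and 1018 CPM in control pigs, and it was not called (0.65, adjusted p = 0.496, edgeR).

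Genes of lipid-laden macrophages showed the most calls among the lists. In macrophage-like nuclei 3 of 15 tested rose, against 0.673% of all genes, with a list median of 2.30 on the log2 scale against 0.10 for all genes. The filter keeps a gene counted in 1 diet group only, and 2 of the 15 had no control UMI. Genes so low in control nuclei, among them GPNMB and LGALS3 with 1 control UMI each, passed the filter through the obese pigs alone. Such genes could be called only as rises, so the calls and the median of the list are a description. GPNMB, a lysosomal glycoprotein, had 235, 1171 and 423 CPM in obese pigs and 7.08 and 0 CPM in control pigs (7.39, adjusted p = 0.040, edgeR). LGALS3, the lectin galectin-3, had 316, 845 and 627 CPM in obese pigs and 0 and 8.70 CPM in control pigs (7.34, adjusted p = 0.027, edgeR). For CTSD, given above, the change was 4.23 on the log2 scale (adjusted p = 0.027, edgeR). Control nuclei held at most 4 UMIs of any of these genes per pig, and the fitted changes of GPNMB and LGALS3 rest on 1 control UMI each. The ratios of their summed levels were 253 (counting interval 45.3 to 9978) and 192 (34.4 to 7581). All 3 calls were lost without obese replicate 3, control replicate 1 or control replicate 2. Without these pigs in turn CTSD was 4.36, 4.30 and 4.24, GPNMB 7.55, 13.31 and 6.60 and LGALS3 7.25, 6.23 and 13.29, where a value above 13 has no control UMI behind it. GPNMB was 6.38 without obese replicate 2.

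In smooth muscle-like nuclei 1 of 17 genes of the lipid-laden macrophage list rose, where 0.138% of all genes did. In endothelial-like nuclei 4 of 10 rose, where 5.9% of all genes did. ABCA1, a cholesterol exporter, had 308, 278 and 318 CPM in the smooth muscle-like class of obese pigs and 92.7 and 73.7 CPM in that of control pigs (1.81, adjusted p = 0.023, edgeR), a call lost without obese replicate 1 (1.79), control replicate 1 (1.95) or control replicate 2 (1.67). In endothelial-like nuclei ABCA1 had 203, 350 and 220 CPM in obese pigs and 56.0 and 67.5 CPM in control pigs (2.13, adjusted p = 0.008, edgeR). The other endothelial-like calls were CTSB, a lysosomal protease (3.09, adjusted p = 0.004, edgeR), CTSD (3.35, adjusted p = 0.018, edgeR) and ABCG1, another cholesterol exporter (2.13, adjusted p = 0.031, edgeR). CTSB had 131, 111 and 123 CPM in obese pigs and 13.4 and 17.1 CPM in control pigs, without overlap, but in the CLEC2B cluster alone CTSB (1.20) and ABCG1 (0.15) were smaller and not called. Without control replicate 1 the endothelial-like calls of ABCA1 (1.96), CTSD (2.72) and ABCG1 (1.62) were lost, CTSD was 2.75 without obese replicate 2 and the ABCG1 call was also lost without obese replicate 1 (2.25) or obese replicate 3 (1.77). None of 10 was called in fibroblast-like nuclei. In smooth muscle-like, fibroblast-like and endothelial-like nuclei the list median was 1.81, 0.92 and 1.59, against 0.00, 0.00 and -0.03 for all genes. Macrophage marker RNA was counted in these classes too, as given above for SPP1, and its part in the list medians was not tested.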

How the data were processed

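Single-nucleus libraries of 3 obese and 2 control pigs were deposited as UMI counts per gene and barcode, which the authors made with Cell Ranger, version 5.0 per the labels and 7.1.0 per the file headers, on Sscrofa11 per the labels. Seurat 5.0 is also named in the labels. Of 45580 deposited barcodes, 77 with under 300 genes or over 5% mitochondrial UMIs were left out. The doublet caller of scanpy marked 2, so the 3517 barcodes with the highest scores, 0.8% per 1000 barcodes, were removed instead. Nuclei were clustered with scanpy 1.11.5 and leidenalg 0.10.2 on 3000 variable genes without the 8 members, 30 principal components and 20 neighbours, at resolution 1.5. A class name needed 3 markers at 20 CPM or more with a median position of 0.55 between clusters. The resolution and the last threshold were set after values were seen. Of the 35670 genes, 17508 carried a symbol in the deposited files and 220 were matched through a table of gene names.

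Counts were summed per class and pig and tested with edgeR 4.0.16 (TMM factors, filterByExpr, quasi-likelihood F-test, Benjamini-Hochberg), for classes with 10 nuclei or more in every pig. The filter left 7 receptors in smooth muscle-like and fibroblast-like nuclei and over all nuclei, and 6 in endothelial-like and macrophage-like nuclei. It works by diet group, so a gene nearly absent in control pigs could pass it through the obese pigs alone. Differences between classes were tested as interactions with the pig as a block. The alternatives were RLE factors, no filter, DESeq2 1.42.0, each pig left out, a replicate block, no doublet removal, the members allowed in the clustering, nuclei without macrophage markers and, added later, single clusters. The edgeR step was tested on simulated counts with 200 changed genes. Intervals are exact 95% binomial or Poisson intervals and cover counting error only, and a count of 0 was given the limit of 3 counts. Each pig was a reaction of its own, so p-values measure the spread between pigs together with that between reactions.

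The members and lists were chosen with earlier results of these data known. From the lists, genes past an adjusted p of 0.05 in a main class are named, or else the 2 highest members, and for likeness the 8 closest genes to SPP1 and the 3 closest to each receptor.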

Additional observations from a re-analysis of the deposited data

Results flagged for a closer look

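The diet effects of 4 receptor genes differed between classes by the interaction test of edgeR, as log2 differences of the first class minus the second. Of all genes, 3.81% were called between smooth muscle-like and endothelial-like nuclei and 2.31% between smooth muscle-like and macrophage-like nuclei. For ITGAV the effect in smooth muscle-like nuclei was below that in endothelial-like nuclei by -1.15 ± 0.37 (adjusted p = 0.0494). For CD44 the smooth muscle-like effect was below the macrophage-like effect by -2.06 ± 0.51 (adjusted p = 0.00773), and for ITGB5 by -1.84 ± 0.50 (adjusted p = 0.0200). With RLE factors the ITGB5 difference was not called (adjusted p = 0.0671 for the interaction, edgeR). For ITGA4 the smooth muscle-like effect was above the macrophage-like effect by 2.54 ± 0.67 (adjusted p = 0.0143). The macrophage-like class was a different mixture in the diets, as its cluster led by CYP7A1 held no control nucleus. This class rested on 412, 1388 and 142 nuclei of obese pigs and 57 and 36 nuclei of control pigs. For ITGA4, control replicate 1 had 34 UMIs in 5 of those nuclei, and the share of macrophage-like nuclei with an ITGA4 UMI was 7.04% to 11.0% in obese pigs and 8.77% and 22.2% in control pigs.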

How the results depend on the processing

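Among single genes, 638 alternative values kept their direction and side of the threshold, 21 became called, 88 lost a call and 35 changed sign. Counts of called genes moved most. In smooth muscle-like nuclei 33 genes were called, against 644 with no filter, 533 with DESeq2, 77 with no doublet removal, 19 with the members in the clustering, 18 in nuclei with no macrophage marker but MERTK and 0 to 103 with a pig left out. In fibroblast-like nuclei 16 were called, against 339, 94, 47 and 137 for the first 4 of these settings and 0 to 139 with a pig left out. In endothelial-like nuclei 539 were called, against 1078 with no filter, 0 and 49 in the CLEC2B and COL23A1 clusters alone and 150 to 522 with a pig left out. In macrophage-like nuclei 55 were called, against 460 with no filter, 257 with DESeq2 and 0 to 141 with a pig left out. Over all nuclei 1 was called, against 559, 796 and 0 to 355. The cause was not tested, except that a cluster or a smaller group holds fewer nuclei or pigs.

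Replicate numbers 1 and 2 occur in both diets. Deviations of same-numbered pigs correlated at r = 0.08 and -0.04 over 20052 genes, so the numbers were not taken to pair the pigs. With the replicate block 240 genes were called in smooth muscle-like nuclei, 237 in fibroblast-like nuclei, 0 in macrophage-like nuclei and 372 over all nuclei. The block turned ITGB3 in smooth muscle-like nuclei to 0.047, CD44 and ITGA4 in fibroblast-like nuclei to -0.19 and -0.10 and ITGA4 over all nuclei to 0.11.

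Apart from ITGA6, the other changes of sign concerned log2 fold changes that were not called. CD44 in smooth muscle-like nuclei was 0.39 with no doublet removal, 0.030 with the members in the clustering and 0.021 in nuclei with no macrophage marker. ITGA4 in fibroblast-like nuclei was -0.048, -0.53 and -0.084 in the same settings and -0.067 with MERTK disregarded. ITGAV in macrophage-like nuclei was -0.016 with RLE factors and -0.024 with DESeq2, and the difference of ITGB1 between smooth muscle-like and fibroblast-like nuclei was 0.0060 with RLE factors. ITGB1 and ITGA6 in the CLEC2B cluster were 0.12 and -0.26, and ITGB5 in the COL23A1 cluster was 0.34. With a pig left out, the log2 fold change in smooth muscle-like nuclei ran from -0.37 to 0.36 for CD44, -0.80 to 0.40 for ITGB3 and -0.074 to 2.15 for ITGA4. It ran from -0.16 to 0.74 for CD44 and -0.30 to 0.56 for ITGA4 in fibroblast-like nuclei, from -0.33 to 0.14 for ITGB1 in endothelial-like nuclei and from -0.75 to 0.34 for ITGAV in macrophage-like nuclei. Over all nuclei it ran from -0.13 to 0.86 for ITGB3 and -0.89 to 0.57 for ITGA4.

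The mean share of obese macrophage-like nuclei with an SPP1 UMI was 48.6% and 37.5% after thinning. By thinned share CD44 in macrophage-like and ITGB1 in smooth muscle-like nuclei ranked 2 among the named classes. The SPP1 ratio of smooth muscle-like to macrophage-like nuclei in obese replicates 1, 2 and 3 was 0.405, 0.944 and 0.0522 against all 12 markers, 2.44, 2.45 and 0.881 against CD163, F13A1 and MSR1, and 0.822, 0.355 and 0.216 against C1QA, C1QB and C1QC.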
